A study of Mus musculus with 18 samples.

Results

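Acot1, Acot2, Acot13, Ucp3, Ucp2 and Angptl4 are genes that muscle uses when it meets more fatty acid than it burns, and they were followed here across the 6 groups of a mouse skeletal muscle RNA-seq series. They were chosen by name, all 6 were present among the 12558 genes of the deposited table, and all 6 passed the filter on low values. Each group held 3 libraries, which the labels number as biological replicates, and all mice were on their diet for 10 weeks. Wild-type mice received normal chow (WT-NC) or a high-fat diet (WT-HFD), and parallel wild-type groups had the drug AQ freely available in the drinking water on either diet (WT-NC-AQ and WT-HFD-AQ). Mice with a Nurr1 transgene on HFD (HFD-Nurr1-mTg) were set against wild-type mice labelled as their transgenic control, also on HFD (HFD-WT). The latter is a second untreated wild-type HFD group, so it could be compared with WT-HFD. The promoter that drives the transgene, the number of transgenic lines, the muscle sampled, and the age and sex of the mice are not given in any source used.

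Acyl-CoA thioesterases split fatty acyl-CoA into free fatty acid and coenzyme A, which frees coenzyme A and limits the build-up of acyl-CoA. Uncoupling proteins sit in the inner mitochondrial membrane, and UCP3 is the form typical of skeletal muscle, while UCP2 is found in many tissues, with much of it in immune cells. ANGPTL4 is a secreted inhibitor of lipoprotein lipase, the enzyme that releases fatty acids from circulating triglycerides, and its gene is also active in fat cells. Fatty acids induce most of these genes through the nuclear receptors called PPARs, and several of them rise in muscle during fasting. NURR1, encoded by Nr4a2, is an orphan nuclear receptor.

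Libraries held 10404895 to 16082994 reads, and the deposited values are read counts per library scaled by TMM factors, written CPM below. The tissue label was met: all 11 skeletal muscle markers were in the table and summed to between 123600 and 172770 CPM per library. Nr4a2 lay between 18.8 and 30.1 CPM in the transgenic libraries and at no more than 4.79 CPM in all others. A clock score was taken as the log2(CPM + 1) of Arntl less that of Dbp, 2 genes of opposite phase in the circadian clock. It did not overlap between the 2 AQ-treated diet groups (-1.62 to -0.24 on chow, -4.65 to -3.95 on HFD), between WT-HFD and WT-HFD-AQ, between the 2 untreated HFD groups (-1.92 to -1.43 in HFD-WT, -3.93 to -3.43 in WT-HFD), or between HFD-WT and HFD-Nurr1-mTg (-3.28 to -2.96). In WT-NC it ran from -4.37 to -0.65.

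Per kilobase of the longest coding transcript, Acot13 had the highest mean level over the 18 libraries (127 CPM per kb) and Ucp3 the next (74.7). Acot2 followed at 10.6, Ucp2 at 4.79, Angptl4 at 2.81 and Acot1 at 0.882 CPM per kb. The spread between libraries followed another order. The highest library exceeded the lowest by 25.2 times for Acot1, 20.2 times for Angptl4, 8.01 times for Acot2 and 5.29 times for Ucp3, but by 2.25 times for Ucp2 and 1.81 times for Acot13. Acot1 rested on 3 to 82 reads per library and Angptl4 on 18 to 394, whereas Ucp3 had 1145 to 5450.

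**Figure D1:**
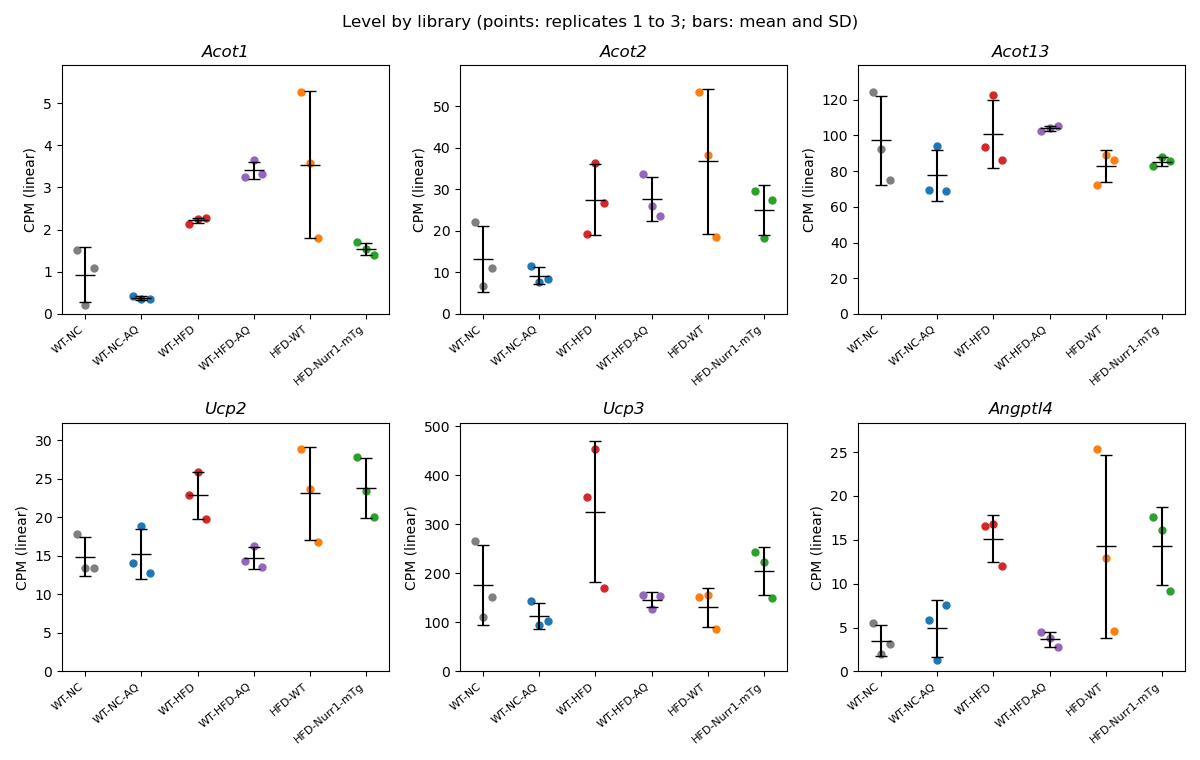
Level of each gene in the 18 libraries, in CPM on linear axes that start at 0. Points are libraries, horizontal bars group means and whiskers the SD of 3 libraries. Angptl4 and Ucp3 are high in WT-HFD and low in WT-HFD-AQ without overlap, while Acot1 is high in both of these groups and lowest in WT-NC-AQ.

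Differences were tested with limma on log2(CPM + 1) in a single fit of all 18 libraries, with a threshold of 0.05 on p-values adjusted by Benjamini-Hochberg over 12524 genes. Each log2 fold change is on that scale, where low genes appear to change less than they do, and carries its standard error (SE). Comparisons that use the same group share its libraries and are not independent. In bulk tissue, fewer cells of a type and less RNA per cell cannot be told apart.

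HFD raised Acot1 and Acot2 in mice on AQ, and this was the single comparison in which more than 1 of the 6 genes passed the threshold. There 2 of the 6 were called, against 10.6% of all genes tested, and the libraries of the 2 diets did not overlap for 3 of the 6 (Acot1, Acot2 and Acot13), against 33.2% of all genes. In untreated mice, 5 of the 6 genes had an unadjusted limma p under 0.05 for HFD against chow (9.53% of all genes did), but none was called, in a comparison where 0.0479% of genes were. The 2 diets did not overlap there for 3 of the 6 (Acot1, Ucp2 and Angptl4), against a background of 12.4%. The edgeR and DESeq2 tests on recovered reads called none of the 6 either.

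AQ against no AQ on HFD gave 0 calls among the 6 genes (0.0479% of all genes were called), with 3 of the 6 at an unadjusted p under 0.05 (11.8% of all genes) and no call by edgeR or DESeq2. The groups did not overlap for 4 of them, against 16.3% of all genes: Acot1 was higher with AQ, and Ucp2, Ucp3 and Angptl4 were lower. On chow, AQ gave 0 calls by limma and edgeR (1.11% of all genes were called by limma), 0 of 6 at an unadjusted p under 0.05 (15.5% of all genes), and no gene of the 6 without overlap, where 19.8% of all genes had none. DESeq2 called none of the 5 genes to which it gave an adjusted p there, Acot1 being the one without. The interaction, which asks whether the AQ difference depends on the diet, called 0 of 6 by limma, edgeR and DESeq2 (0.711% of all genes by limma), with 3 of 6 at an unadjusted p under 0.05 (Acot1, Ucp2 and Angptl4; 14.1% of all genes).

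For the Nurr1 transgene on HFD, 0 of 6 passed by limma, edgeR or DESeq2 (0.599% of all genes by limma), and 1 of 6, Acot1, had an unadjusted p under 0.05 (8.95% of all genes). Acot1 was also the single gene of the 6 whose groups did not overlap, against 14.3% of all genes. Between the 2 untreated wild-type HFD groups, 1 of 6 was called (4.46% of all genes), and the same 1 did not overlap (23.0% of all genes): Ucp3, which was lower in HFD-WT.

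**Figure D2:**
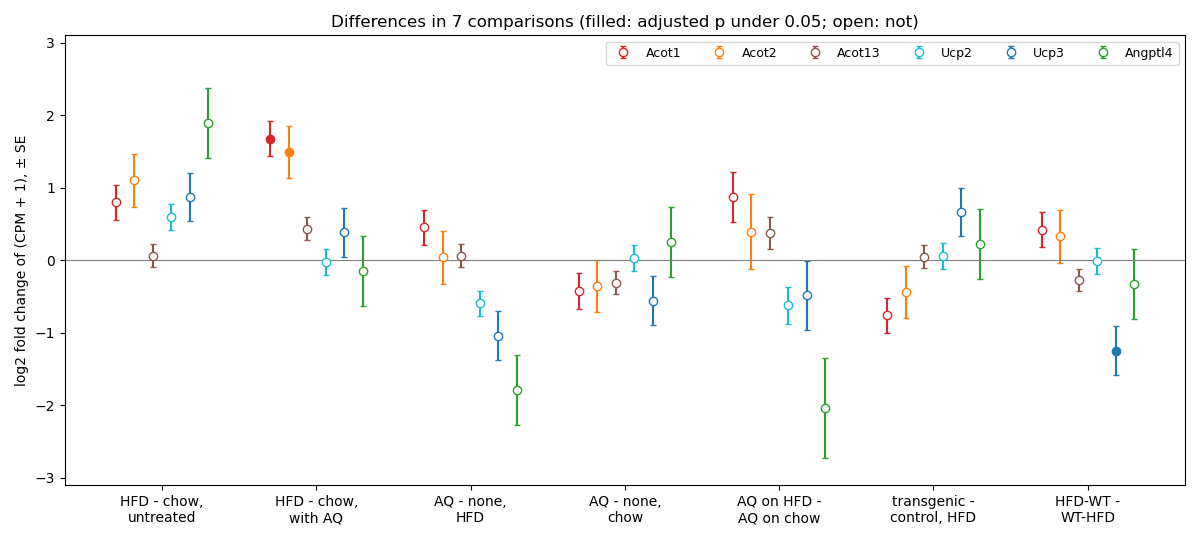
Log2 fold change of (CPM + 1) with its SE for the 6 genes in 7 comparisons, the fifth being the difference between the AQ effects on HFD and on chow. Filled points passed the limma threshold of 0.05: Acot1 and Acot2 for HFD against chow with AQ, and Ucp3 between the 2 untreated HFD groups.

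Acot1 encodes the cytosolic and Acot2 the mitochondrial form of a long-chain acyl-CoA thioesterase, and they are tandem copies on the plus strand of mouse chromosome 12 (GRCm38, GENCODE). Acot2 spans 83987861 to 83993873 and Acot1 spans 84009490 to 84018371, with 15616 bases between them and 3 exons each. Their coding sequences were 95.55% identical over 1236 aligned bases, and the longest identical run was 273 bases. Of the 50-base stretches of the Acot1 transcript, the length of the reads, 33.6% also occur in another gene and 23.7% in Acot2. For Acot2 the share found elsewhere was 27.7%. No source used here says how reads with several matches were handled, so the split between both genes is uncertain. The stretches below, both from exon 3 and on the plus strand, show how little tells the copies apart: the first 60 bases are the same, and capitals mark the 5 bases that differ in the next 60.
Acot1, chr12:84017219-84017338: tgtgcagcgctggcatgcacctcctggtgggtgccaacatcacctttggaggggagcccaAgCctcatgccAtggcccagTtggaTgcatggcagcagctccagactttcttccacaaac
Acot2, chr12:83992941-83993060: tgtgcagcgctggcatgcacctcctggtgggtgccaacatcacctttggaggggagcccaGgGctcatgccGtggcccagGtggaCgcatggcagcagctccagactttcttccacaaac

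The starts of the same genes look unlike each other. In the RefSeq promoter windows (GRCm38.p6, 250 bases before the start to 50 after, plus strand), the longest run that both share is 9 bases. They are shown because both genes were called in the same comparison, and capitals mark the start codon, which lies at position 259 of the Acot1 window and at position 292 of the Acot2 window.
Acot1, chr12:84009252-84009551: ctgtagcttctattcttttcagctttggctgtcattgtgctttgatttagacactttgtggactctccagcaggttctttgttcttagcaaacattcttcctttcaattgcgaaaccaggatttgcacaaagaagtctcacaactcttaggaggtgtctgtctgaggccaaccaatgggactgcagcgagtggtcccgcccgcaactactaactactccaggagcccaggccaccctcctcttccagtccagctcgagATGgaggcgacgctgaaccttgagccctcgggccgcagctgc
Acot2, chr12:83987611-83987910: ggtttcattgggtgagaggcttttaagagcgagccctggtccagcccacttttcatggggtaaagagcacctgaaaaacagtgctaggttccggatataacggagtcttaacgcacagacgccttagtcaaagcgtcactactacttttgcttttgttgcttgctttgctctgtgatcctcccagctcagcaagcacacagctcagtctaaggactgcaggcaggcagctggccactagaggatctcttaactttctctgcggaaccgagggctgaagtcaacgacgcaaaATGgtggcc

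Acot1 was at 0.423, 0.349 and 0.366 CPM in the WT-NC-AQ libraries and at 3.25, 3.64 and 3.33 CPM in the WT-HFD-AQ libraries. The 2 groups lie far apart, and each is tight. The means of 0.379 ± 0.039 and 3.41 ± 0.21 CPM (SD, n = 3) differ 8.98 times, with a log2 fold change of 1.68 ± 0.24 (SE) and a limma adjusted p of 5.05e-04. The chow values stand on 5 or 6 reads per library, so the size depends on how low counts are treated: the log2 fold change was 3.14 by edgeR on recovered reads, 2.54 with a pseudocount of 0.25 and 0.76 with a pseudocount of 4, and the call held in all 3. With the clock score as a covariate it was 2.06 (limma adjusted p = 0.0103). That score did not overlap between these 2 groups, so such a fit cannot tell diet and score apart. The same limit holds for the other genes in this comparison.

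In untreated mice Acot1 was at 1.51, 0.209 and 1.09 CPM on chow and at 2.14, 2.24 and 2.27 CPM on HFD. All HFD libraries exceeded all chow libraries, and the chow group was the uneven one, with replicate 2 at 3 reads. The log2 fold change of 0.80 ± 0.24 missed the threshold (limma adjusted p = 0.341), as did the AQ difference on HFD (0.45 ± 0.24, adjusted p = 0.503), on chow (-0.42 ± 0.24, adjusted p = 0.428) and the interaction (0.88 ± 0.35, adjusted p = 0.259).

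HFD-WT held Acot1 at 5.27, 3.57 and 1.79 CPM and HFD-Nurr1-mTg at 1.70, 1.53 and 1.40 CPM. The transgenic libraries were alike and all lay below the controls, of which replicate 3 came within 0.1 CPM of them. The log2 fold change of -0.76 ± 0.24 missed the threshold (limma adjusted p = 0.243), and without HFD-WT replicate 3 it was -1.07 and passed (limma adjusted p = 0.0401). In the order of Acot1 means, from WT-NC-AQ through WT-NC, HFD-Nurr1-mTg, WT-HFD and WT-HFD-AQ to HFD-WT, the neighbours that did not overlap were HFD-Nurr1-mTg and WT-HFD, and WT-HFD and WT-HFD-AQ.

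Acot2 was at 11.5, 7.81 and 8.35 CPM in WT-NC-AQ and at 33.7, 26.0 and 23.6 CPM in WT-HFD-AQ. The groups did not overlap, and the lowest HFD library was above the highest chow library by a wide margin. The means of 9.21 ± 1.99 and 27.8 ± 5.3 CPM (SD, n = 3) differ 3.01 times, with a log2 fold change of 1.49 ± 0.36 (limma adjusted p = 0.0142). This call was lost without WT-NC-AQ replicate 3 (limma adjusted p = 0.0582) or without WT-HFD-AQ replicate 1 (adjusted p = 0.0593). With the clock score as a covariate the log2 fold change was 2.17 (limma adjusted p = 0.0462).

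Untreated chow libraries held Acot2 at 22.2, 6.68 and 11.0 CPM and untreated HFD libraries at 19.4, 36.4 and 26.7 CPM. The groups overlapped through WT-NC replicate 1, which exceeded an HFD library and was the highest of the untreated chow libraries for all 6 genes. Its clock score, -0.65, was the highest of that group as well. The cause of the high values in this library was not tested. The log2 fold change was 1.10 ± 0.36 (limma adjusted p = 0.355), and 1.52 without that library (limma adjusted p = 0.0774). With the clock score as a covariate it was 1.33 (limma adjusted p = 0.190).

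AQ left Acot2 with nearly equal means on HFD, 27.8 with and 27.5 CPM without, and the 95% confidence interval of the log2 fold change ran from -0.72 to 0.80. HFD-WT libraries were at 53.5, 38.3 and 18.5 CPM and HFD-Nurr1-mTg libraries at 29.7, 18.2 and 27.4 CPM, which overlapped (log2 fold change -0.44 ± 0.36, limma adjusted p = 0.825). All neighbouring groups in the order of Acot2 means overlapped. The summed level of both copies was 9.59 ± 2.02 CPM in WT-NC-AQ and 31.2 ± 5.2 CPM in WT-HFD-AQ. Dividing shared reads between the copies does not change this sum. It still depends on whether such reads were dropped, counted for both copies or given to another gene, which is not known. Acot2 exceeded Acot1 by 22.4 to 27.2 times in WT-NC-AQ and by 7.08 to 10.4 times in WT-HFD-AQ, and these ranges did not overlap. The WT-NC-AQ ratios rest on 5 or 6 Acot1 reads per library, and without AQ the ratios overlapped, at 10.1 to 32 on chow and 9.03 to 16.3 on HFD.

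Acot13 encodes a small thioesterase of another family that is associated with mitochondria, and lies on the minus strand of chromosome 13 from 24817948 to 24831540. It was the steadiest of the 6 genes. WT-NC-AQ libraries held 69.7, 94.3 and 68.8 CPM and WT-HFD-AQ libraries 102, 104 and 105 CPM. They did not overlap, and the HFD libraries were closely spaced while replicate 2 on chow stood above the rest of its group. The log2 fold change of 0.43 ± 0.16 missed the threshold (limma adjusted p = 0.0850). It passed without WT-NC-AQ replicate 2 (0.58, limma adjusted p = 0.0325), in a fit of only those 2 groups (0.43, adjusted p = 0.0208) and with the clock score as a covariate (0.87, adjusted p = 0.0423).

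In untreated mice Acot13 was at 97.4 ± 24.9 CPM on chow and 101 ± 19 CPM on HFD (SD, n = 3), and the 95% confidence interval of the log2 fold change ran from -0.27 to 0.39. HFD-WT was at 82.7 ± 9.0 CPM and HFD-Nurr1-mTg at 85.3 ± 2.5 CPM, with an interval from -0.28 to 0.38. All neighbouring groups overlapped in the order of Acot13 means.

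Ucp3 and Ucp2 lie head to tail on the plus strand of chromosome 7, Ucp3 from 100472990 to 100486432 and Ucp2 from 100493337 to 100502020, with 6904 bases between them. The Ucp2 transcript shares 6.50% of its 50-base stretches with Dnajb13, a gene on the other strand that has no row in the table, and no source used here says whether counting used the strand. Promoter windows were searched on both strands for AGGTCA, the core site of many nuclear receptors, for a pair of core sites 1 base apart as bound by PPARs with RXR (AGGTCANAGGTCA), and for the site bound by NR4A receptors alone (AAAGGTCA); both longer motifs contain the core site. Among the genes with a window in the RefSeq table, Ucp3, Ucp2, Acot1 and Acot2, only Ucp3 had a match, and it had 2 copies of the core site. The window is shown, on the plus strand, with those copies in capitals, at positions -149 and -44 from the start.
Ucp3, chr7:100472741-100473040: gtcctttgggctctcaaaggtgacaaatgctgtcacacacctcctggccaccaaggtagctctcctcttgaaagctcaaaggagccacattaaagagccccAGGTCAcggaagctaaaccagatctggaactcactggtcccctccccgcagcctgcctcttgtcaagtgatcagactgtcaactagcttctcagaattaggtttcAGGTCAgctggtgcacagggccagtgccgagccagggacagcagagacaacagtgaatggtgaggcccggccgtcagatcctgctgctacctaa
Of 32851 promoter windows, 16.3% held the core site, 1.51% the NR4A site and 0.0396% the pair. A match shows the letters and not a bound site.

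Ucp3 was called between the 2 untreated wild-type HFD groups. WT-HFD libraries held 355, 452 and 170 CPM and HFD-WT libraries 152, 156 and 85.5 CPM. The groups did not overlap, although WT-HFD replicate 3 was close to the upper HFD-WT libraries. The means of 326 ± 144 and 131 ± 40 CPM (SD, n = 3) gave a log2 fold change of -1.24 ± 0.33 for HFD-WT minus WT-HFD (limma adjusted p = 0.0423). The call was lost without WT-HFD replicate 1 (limma adjusted p = 0.119) or 2 (0.216) and without HFD-WT replicate 1 (0.0662), 2 (0.0723) or 3 (0.149), in a fit of only these groups (0.131), and after removal of each library's GC trend (0.0522). The clock score separated the groups too, and with it as a covariate the log2 fold change was -1.67 (limma adjusted p = 0.0467). What else differed between these mice cannot be told apart from the group.

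On HFD with AQ the libraries held Ucp3 at 157, 128 and 155 CPM, all below those of WT-HFD. The AQ-treated group was narrow and the untreated group wide. Ucp3 was 0.449 times as high with AQ, a log2 fold change of -1.04 ± 0.33 that missed the threshold (limma adjusted p = 0.208) and passed without WT-HFD replicate 3 (-1.45, limma adjusted p = 0.0257). The AQ-treated libraries overlapped the other untreated HFD group, HFD-WT.

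On chow Ucp3 was at 267, 111 and 151 CPM without AQ and at 143, 93.9 and 104 CPM with AQ. These groups overlapped, and replicate 1 was the highest of the untreated ones. The diet difference was 0.87 ± 0.33 without AQ (limma adjusted p = 0.420) and 0.38 ± 0.33 with AQ (adjusted p = 0.519). Transgenic libraries held 243, 223 and 150 CPM, of which the lowest fell inside the range of HFD-WT, and the log2 fold change was 0.66 ± 0.33 (limma adjusted p = 0.598). No neighbouring groups in the order of Ucp3 means were free of overlap.

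Ucp2 was at 23.0, 25.9 and 19.8 CPM in WT-HFD, at 17.8, 13.4 and 13.4 CPM in WT-NC and at 14.3, 16.3 and 13.6 CPM in WT-HFD-AQ. The untreated HFD libraries lay above all libraries of the other two groups. HFD minus chow was 0.59 ± 0.18 (limma adjusted p = 0.332) and AQ minus none on HFD was -0.60 ± 0.18 (adjusted p = 0.171), and neither passed. With AQ, chow (14.0, 18.9 and 12.8 CPM) and HFD differed by -0.03 ± 0.18 on the log2 scale (limma adjusted p = 0.943), with a 95% confidence interval from -0.41 to 0.34. HFD-WT (28.8, 23.7 and 16.8 CPM) and HFD-Nurr1-mTg (27.9, 23.5 and 20.0 CPM) overlapped almost fully, with a 95% confidence interval of the log2 fold change from -0.32 to 0.43.

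Summed over the 8 of 11 leukocyte markers in the table, levels were 90.7 to 114 CPM in WT-HFD, 79.1 to 82.6 in WT-NC and 69.0 to 82.5 in WT-HFD-AQ. As for Ucp2, WT-HFD lay above WT-NC and WT-HFD-AQ without overlap. WT-NC and WT-HFD-AQ overlapped for the marker sum and for Ucp2, whose means there were nearly equal (14.9 and 14.7 CPM). Transgenic libraries had 114 to 135 CPM and HFD-WT libraries 87.6 to 157 CPM, and WT-NC-AQ libraries had 95.3 to 142 CPM while Ucp2 there was as low as in WT-NC. The T and B cell markers Cd3e and Cd79a and the macrophage marker Adgre1 had no rows. The part of such cells in the Ucp2 values was not tested. In the order of Ucp2 means, the only neighbours that did not overlap were WT-NC-AQ and WT-HFD.

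Angptl4 had the widest group differences after Acot1. It lies on the minus strand of chromosome 17 from 33773750 to 33781830. WT-HFD libraries held 16.5, 16.8 and 12.03 CPM, WT-NC libraries 5.47, 2.02 and 3.08 CPM, and WT-HFD-AQ libraries 4.46, 3.78 and 2.77 CPM. All 3 untreated HFD libraries exceeded every library of the other two groups, and AQ-treated HFD libraries lay within the range of untreated chow. The mean on HFD was 4.30 times that on chow (15.1 ± 2.7 against 3.52 ± 1.77 CPM; a difference of 1.89 ± 0.48 on the log2 scale, limma adjusted p = 0.218). With AQ on HFD it was 0.243 times that without (3.67 ± 0.85 CPM; log2 fold change -1.79 ± 0.48, adjusted p = 0.137). Neither passed, except that the AQ difference passed in a fit of only WT-HFD and WT-HFD-AQ (limma adjusted p = 0.00919).

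On chow with AQ the Angptl4 libraries were uneven, at 5.92, 1.26 and 7.54 CPM, and overlapped those without AQ. The AQ difference on chow was 0.25 ± 0.48 and the interaction -2.04 ± 0.68, with an unadjusted p of 0.0082 and a limma adjusted p of 0.182. The other untreated HFD group spread from 4.56 to 25.3 CPM, with 12.9 between, so its replicate 3 was as low as chow. Transgenic libraries held 17.6, 16.1 and 9.22 CPM, inside that range, and the mean was 14.3 CPM in both groups. All neighbouring groups overlapped in the order of Angptl4 means.

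The sum of 7 adipocyte markers was 350 to 409 CPM in WT-HFD, 189 to 305 in WT-NC and 245 to 328 in WT-HFD-AQ, so it was highest without overlap in WT-HFD, as Angptl4 was. In HFD-WT it was highest in replicate 1 (509) and lowest in replicate 3 (251), again as for Angptl4. The libraries of WT-NC also had the same order for both, but those of the remaining groups did not. In WT-HFD the sum was lowest in replicate 1 (350), and Angptl4 was lowest in replicate 3 (12.03 CPM). In WT-NC-AQ replicate 2 had the lowest Angptl4 (1.26 CPM), while replicate 1 had the lowest sum (219, against 265 in replicate 2). The largest part of this sum was Fabp4, which averaged 256 CPM in WT-HFD, 162 in WT-NC and 212 in WT-HFD-AQ. None of the 7 markers was at 0 in any group mean. Adipoq averaged 27.5 CPM in WT-HFD, 10.1 in WT-NC and 11.5 in WT-HFD-AQ, whereas Cfd averaged 30.8, 42.3 and 30.2 CPM. None of these 7 markers was called in any comparison by limma, with 6 of 7 at an unadjusted p under 0.05 for the untreated diets, 5 for AQ on HFD and 5 for the interaction. At that level were 9.53%, 11.8% and 14.1% of all genes. The median log2 fold change of the 7 markers was 1.27 for the untreated diets, -1.13 for AQ on HFD and -1.77 for the interaction, beside medians of all genes within 0.01 of 0. Of 3 brown adipocyte markers, Ucp1 and Elovl3 have no rows, and Cidea was called for HFD against chow with AQ (2.68 ± 1.23 against 0.451 ± 0.086 CPM; 1.29 ± 0.25, limma adjusted p = 0.00413). The part of fat cells in the Angptl4 differences was not tested.

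Among libraries of the same group, Ucp3 and Angptl4 varied together. After each group's mean was subtracted, Pearson's r was 0.662 over 18 libraries (exact permutation within groups, p = 0.0024, adjusted 0.036 over 15 pairs) and Spearman's rho was 0.754 (exact permutation p = 0.0021, adjusted 0.0315). Both genes deviated to the same side in 15 of the 18 libraries, and r was 0.686 without the 2 libraries farthest from the median of Ucp3. This was the one pair of 15 that passed. Acot1 and Acot2 had the highest r, 0.826 (exact permutation p = 0.0153, adjusted 0.072), and may share reads. The 5 pairs with Acot13 ran from -0.23 to 0.43, and none of their exact permutation values passed.

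**Figure D3:**
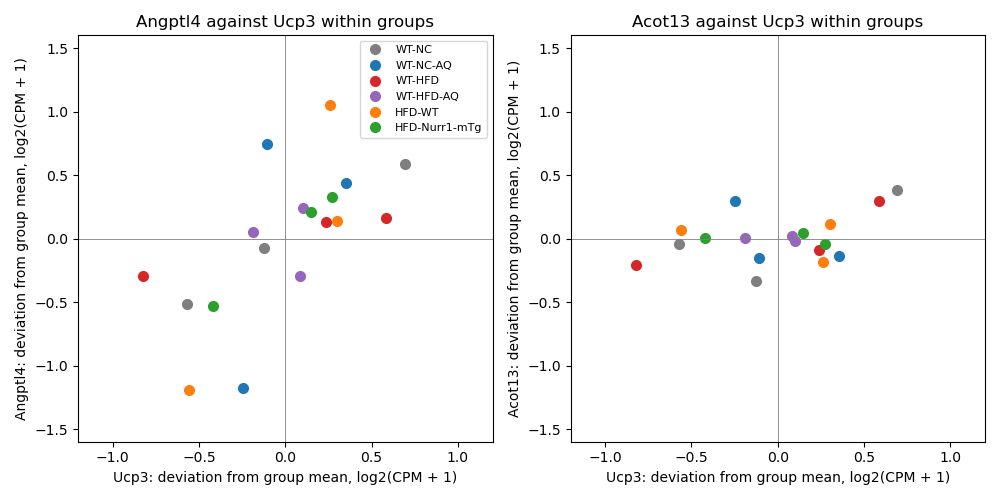
Deviation of each library from its group mean in log2(CPM + 1), with Ucp3 on the horizontal axes and Angptl4 (left) or Acot13 (right) on the vertical axes; colours are the 6 groups. Angptl4 and Ucp3 share the side of their mean in 15 of 18 libraries (r = 0.662), and Acot13 and Ucp3 in 9 of 18 (r = 0.374).

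The genes whose log2(CPM + 1) followed each of the 6 most closely over the 18 libraries were found among 9203 genes with a mean of at least 5 CPM. These libraries share groups and scaling, so r is a description. For Acot1 they were Ech1 (r = 0.906), Mlycd (0.901) and Decr1 (0.897), which encode enzymes of fatty acid oxidation and of malonyl-CoA breakdown. Acot2 was followed by Mlycd (0.931), Chrna2 (0.929) and the carnitine carrier gene Slc25a20 (0.927). Acot13 was followed by the genes of the mitochondrial chaperone Hspa9 (0.950), of the haem lyase Hccs (0.942), also mitochondrial, and of the cytosolic malate dehydrogenase Mdh1 (0.940).

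Ucp2 tracked genes of matrix and mesenchymal cells, Postn (0.927), Bgn (0.908) and Vim (0.879). The sum of 5 fibroblast markers was 1348 to 2288 CPM in WT-HFD and 1097 to 1428 CPM in WT-HFD-AQ. On chow it was 1302 to 1530 CPM without and 1305 to 1643 CPM with AQ, both overlapping WT-HFD, and its part in the Ucp2 values was not tested. Ucp3 tracked Pls3 (0.873), Pdk4 (0.836) and Tmod3 (0.834). Pdk4 encodes a kinase that shuts off pyruvate oxidation, and within groups its r with Ucp3 was 0.914. It averaged 1937 ± 1029 CPM in WT-HFD and 650 ± 100 CPM in WT-HFD-AQ (SD, n = 3; log2 fold change -1.45 ± 0.42, limma adjusted p = 0.166). Angptl4 tracked Adcy5 (0.901), the hormone-sensitive lipase gene Lipe (0.872) and Slc1a5 (0.868).

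Other PPAR target genes of fatty acid use set Acot1 and Acot2 beside their pathway. For HFD against chow with AQ, 21 of the 28 tested were higher and none lower past the threshold, where 10.6% of all genes were called, with a median log2 fold change of 0.74. Among them were Decr1 (306 ± 4 against 137 ± 12 CPM; 1.16 ± 0.12, limma adjusted p = 5.18e-05), Ech1 (470 ± 48 against 214 ± 27 CPM; 1.13 ± 0.13, adjusted p = 1.38e-04) and the subunit gene Hadhb of the trifunctional protein (80.8 ± 9.3 against 43.7 ± 2.0 CPM; 0.87 ± 0.12, adjusted p = 3.23e-04). In untreated mice 2 of 28 passed, Ech1 (0.84 ± 0.13, limma adjusted p = 0.0274) and Decr1 (0.73 ± 0.12, adjusted p = 0.0344), where 0.0479% of all genes were called. There 27 of 28 lay above 0 and the median was 0.41. An unadjusted limma p under 0.05 was reached by 22 of 28 in untreated mice (9.53% of all genes). With AQ it was reached by 21 of 28 (25.4% of all genes). AQ on HFD, AQ on chow, the interaction, the transgene and the 2 HFD groups gave no call in the list by limma, with 3, 7, 8, 1 and 1 of 28 at an unadjusted p under 0.05. The shares of all genes at that level were 11.8%, 15.5%, 14.1%, 8.95% and 20.2%. Their medians were 0.14, -0.20, 0.33, -0.11 and -0.14.

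**Figure D4:**
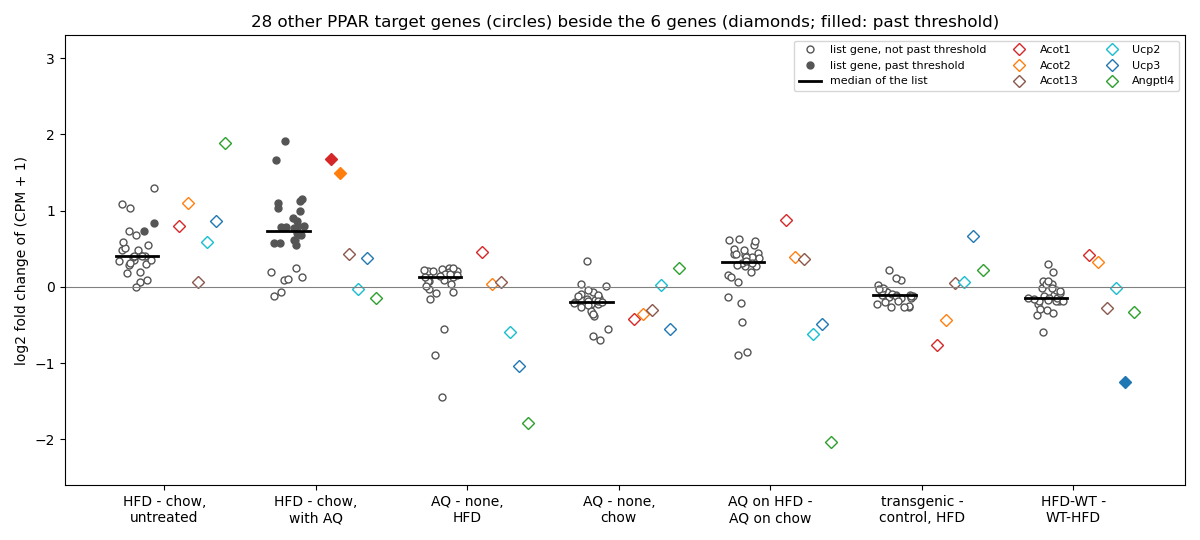
Log2 fold change of (CPM + 1) of 28 other PPAR target genes (circles, with their median as a bar) beside the 6 genes (diamonds) in 7 comparisons; filled symbols passed the limma threshold. With AQ on HFD the list has a median of 0.14, and Angptl4 (-1.79), Ucp3 (-1.04) and Ucp2 (-0.60) lie below it. There 7 of the 28 list genes, Pdk4 among them, lie below 0 as well.

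For HFD against chow with AQ, 1 of 7 other thioesterases and 1 of 5 related carriers were called, beside 10.6% of all genes. Between the 2 HFD groups the counts were the same, beside 4.46% of all genes. Of 7 other thioesterases tested, Acot11 rose with HFD under AQ (27.7 ± 1.6 against 17.4 ± 1.1 CPM; 0.64 ± 0.13 on the log2 scale, limma adjusted p = 0.00563) and Acot9 was lower in HFD-WT than in WT-HFD (8.83 ± 0.99 against 11.99 ± 0.68 CPM; -0.41 ± 0.11, adjusted p = 0.0451). Of 5 related mitochondrial carriers, Slc25a30, an uncoupling protein relative, was, like Ucp3, lower in HFD-WT than in WT-HFD (4.24 ± 1.67 CPM in HFD-WT, 16.8 ± 7.5 in WT-HFD; -1.74 ± 0.28, limma adjusted p = 0.00286) and was higher with HFD under AQ (1.17 ± 0.28, adjusted p = 0.0136). Ucp1, the brown fat form, has no row. No other thioesterase or carrier was called.

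In the lipoprotein lipase axis, Angptl4's target gene Lpl was not called in any comparison and averaged 970 ± 131 CPM in WT-HFD and 1161 ± 50 CPM in WT-HFD-AQ (SD, n = 3). HFD under AQ raised the fatty acid receptor gene Cd36 (670 ± 39 against 330 ± 29 CPM; 1.02 ± 0.19 on the log2 scale, limma adjusted p = 0.00246) and Gpihbp1, which anchors the lipase to capillaries (0.62 ± 0.15, adjusted p = 0.0138), and lowered Furin, a protease that cleaves the lipase (-0.44 ± 0.07, adjusted p = 6.78e-04). Furin was higher with AQ on chow (0.36 ± 0.07, limma adjusted p = 0.0215), with an interaction of -0.45 ± 0.09 (adjusted p = 0.0353). Between the 2 HFD groups Furin was higher (0.28 ± 0.07, limma adjusted p = 0.0234) and Gpihbp1 lower (-0.60 ± 0.15, adjusted p = 0.0307) in HFD-WT.

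Among 12 PPAR-related regulators, Nrip1, a corepressor, was higher (1.00 ± 0.17, limma adjusted p = 0.00162) and the receptor Ppard was lower (-0.33 ± 0.09, adjusted p = 0.0208) with HFD under AQ. On chow, Nrip1 was lower with AQ (-0.91 ± 0.17, limma adjusted p = 0.0216). It was also lower in HFD-WT than in WT-HFD (-0.94 ± 0.17, limma adjusted p = 0.00516). No regulator was called for the untreated diets, AQ on HFD, the interaction or the transgene by limma, with 0, 2, 3 and 1 of 12 at an unadjusted p under 0.05. At that level were 9.53%, 11.8%, 14.1% and 8.95% of all genes.

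Genes of fasting and of glucocorticoid action gave 4 calls of 15, all lower with HFD under AQ (10.6% of all genes were called there): the ubiquitin ligase genes Fbxo32 (352 ± 37 against 625 ± 101 CPM; -0.82 ± 0.21, limma adjusted p = 0.0209) and Trim63 (-0.51 ± 0.15, adjusted p = 0.0405), Lpin1 (-0.54 ± 0.12, adjusted p = 0.00759) and Mt2 (-1.11 ± 0.33, adjusted p = 0.0379). For AQ on HFD, 14 of these 15 lay below 0 with a median of -0.36 and 8 had an unadjusted p under 0.05 (11.8% of all genes), but none was called. For the transgene 13 of 15 lay below 0 with a median of -0.44, and between the HFD groups 13 of 15 with a median of -0.28, again with no call by limma. An unadjusted p under 0.05 was reached by 5 and 2 of them, beside 8.95% and 20.2% of all genes. Of 7 hypoxia genes, Slc2a1 was lower and Pdk1 higher with HFD under AQ (-0.57 ± 0.14, limma adjusted p = 0.0173, and 0.30 ± 0.08, adjusted p = 0.0196). AQ on chow raised Slc2a1 (0.64 ± 0.14, limma adjusted p = 0.0422) and lowered Bnip3 (-0.31 ± 0.07, adjusted p = 0.0442), the interaction was called for Slc2a1 (-0.99 ± 0.20, adjusted p = 0.0349), and Bnip3 was lower in HFD-WT than in WT-HFD (-0.33 ± 0.07, adjusted p = 0.0141). Of all genes, 10.6% were called for HFD under AQ, 1.11% for AQ on chow, 0.711% for the interaction and 4.46% between the HFD groups.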

How the data were processed

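Mouse skeletal muscle RNA was isolated with TRIzol, and single-end reads of 50 bases were made, per the labels' protocols. The authors deposited 1 table with a CPM value per gene and library, a scaled signal and not plain CPM: its columns sum to between 929993 and 1071538, its values are whole reads (100% within 1e-06) times a factor per library, and TMM recomputed on those reads gave the same scale. TopHat2 2.0.12, edgeR, GRCm38 and mm10 are named, per the submitters' processing notes; the annotation, the counting tool and the use of strand are not stated there. A gene at 3 reads lay at 0.191 to 0.277 CPM, a floor that covers counting error only.

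Genes that reached 1 CPM in 3 libraries or more entered a test with limma 3.58.1 in R 4.3.3 (lmFit, eBayes with trend, 12 residual degrees of freedom, two-sided, Benjamini-Hochberg). The labels call the replicates biological and do not say which animals they came from, so p-values measure the spread between these samples. Replicate pairs differed by more than sampling noise (chi-square per degree of freedom at least 4.22). Same-numbered replicates correlated between -0.21 and 0.31 after group means were removed, and not every pair of a comparison was above 0.1, so the numbers were not taken to pair samples. Alternatives were pseudocounts of 0.25 and 4, no filter, rescaling, a fit of only the groups compared, a replicate block, a clock score covariate, removal of a GC trend (loess, span 0.3), edgeR 4.0.16 and DESeq2 1.42.0 on recovered reads, and leaving out each library. The limma test was checked on simulated reads, which recovered 52.5% to 63.9% of 1.5-fold changes and 98.4% to 100% of 4-fold changes, depending on the comparison. The simulated spread was set by a gene's mean level and not by the 6 genes themselves. The check therefore does not give the power for the 6 genes.

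The 6 genes, the gene lists and the tests were chosen with earlier results of these data known. The 6 genes were always named, with the 3 genes most like each. In a list, genes past the threshold were named, or the 4 with the smallest p where more passed, and up to 2 others where none did. A gene that this rule names is left out of the text. Gene models were GENCODE release M21 (GRCm38), and promoters came from a RefSeq table (GRCm38.p6) that was matched by symbol for 4 of the 6 genes.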

Additional observations from a re-analysis of the deposited data

How the results depend on the processing

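Of the fold changes of the 6 genes under settings other than leaving out a library, 401 kept their direction and side of the threshold, 12 turned, 3 gained a call and 2 lost it. Of those without 1 library, 254 kept both, 24 turned, 3 gained and 7 lost a call. Left out are fold changes to which DESeq2 gave no adjusted p, for AQ on chow and in another comparison. The DESeq2 counts of calls take such a gene as not called. For HFD against chow with AQ, Ucp2 was 0.035 after rescaling, 0.31 with the clock score and 0.049 without the GC trend, and Angptl4 0.77 with the clock score. For AQ on chow, Ucp2 was -0.15 with the clock score and -0.047 without the GC trend, and Angptl4 -0.22 with the clock score. For the transgene, Angptl4 was -0.013 by edgeR and -0.00074 by DESeq2. Between the HFD groups, Acot2 was -0.11 with the clock score, and Ucp2 0.022 by edgeR and 0.019 by DESeq2. The cause was not tested.

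For the fold changes that turned in at least 1 fit without a library, the values over all such fits ran from -0.11 to 0.25 for Acot13 between untreated diets; from -0.14 to 0.12 for Ucp2 and -0.74 to 0.23 for Angptl4 between diets with AQ; from -0.18 to 0.26 for Acot2 and -0.042 to 0.21 for Acot13 with AQ on HFD; from -0.73 to 0.070 for Acot2, -0.13 to 0.15 for Ucp2 and -0.12 to 0.84 for Angptl4 with AQ on chow; from -0.029 to 0.77 for Acot2 in the interaction; from -0.042 to 0.11 for Acot13, -0.14 to 0.23 for Ucp2 and -0.37 to 0.75 for Angptl4 with the transgene; and from -0.18 to 0.19 for Ucp2 and -0.86 to 0.26 for Angptl4 between the HFD groups.

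The number of the 6 genes called was 3 in place of 2 for diets with AQ, both in a fit of only those groups and with the clock score (Acot13 added). It was 1 in place of 0 for AQ on HFD in a fit of only those groups (Angptl4), and 0 in place of 1 between the HFD groups in such a fit and without the GC trend. Without 1 library it was 0 to 0 for untreated diets, 1 to 3 for diets with AQ, 0 to 1 for AQ on HFD, for the transgene and between the HFD groups, and 0 to 0 for AQ on chow and the interaction. The replicate block changed no call among the 6 genes.

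All genes called, in the same order of comparisons, were 6, 1324, 6, 139, 89, 75 and 559. For untreated diets they were 3 after rescaling, 2 with only those groups, 12 with the replicate block and 47 by DESeq2. For diets with AQ they were 531 with the clock score. For AQ on HFD they were 1 with only those groups, 49 with the block, 16 with the clock score and 143 by DESeq2. For AQ on chow they were 43 after rescaling, 12 with only those groups, 18 without the GC trend and 280 by DESeq2. The interaction gave 32 after rescaling, 30 with the clock score, 25 without the GC trend and 229 by DESeq2. The transgene gave 171 by DESeq2, and the HFD groups gave 96 alone, 319 with the clock score and 272 without the GC trend. Without 1 library the counts ran from 0 to 40, 573 to 1130, 0 to 224, 13 to 113, 3 to 103, 43 to 72 and 145 to 748. The Ucp3 and Angptl4 correlation passed at both other pseudocounts and after rescaling. With 3 to 6 reads in 4 chow libraries, depth limits the size given for Acot1.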
